A study of Homo sapiens with 3 samples.

Results

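The genes described here are interferon receptor chains and the transcription factors that act below them: IFNAR1, IFNAR2, IFNGR1, STAT2, IRF1, IRF2, IRF3, IRF7 and IRF9. They were chosen by name, with IRF1 selected on its higher level in cocultured MM.1S cells in these same data, so every value of that contrast is a description. Of the 9 genes, 8 had a row among the 43913 gene symbols of the count tables, and IRF9 was not analysed here. In MM.1S cells, the level of IRF1 was 13.2-fold higher in coculture than in monoculture, whereas in HS-5 cells it was 0.941 times the monoculture level. No other gene of the group changed by as much in either line. IRF3 was 2.32-fold higher and IFNAR2 0.471 times as high in cocultured MM.1S cells, and in HS-5 cells none of the measured genes differed 2-fold between the cultures.

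Single-cell RNA-seq was done by Drop-seq, in which a cell shares a droplet with a barcoded bead and each RNA molecule carries a unique molecular identifier (UMI). Each of 3 conditions is 1 library: the multiple myeloma line MM.1S in monoculture, the bone marrow stromal line HS-5 in monoculture, and both lines after 4 h of coculture, with no agent added. HS-5 is a stromal line immortalised with papillomavirus oncogenes, and both are established lines grown in culture, so neither stands for the variety of cells in a patient's marrow. With no replicate culture, a difference between conditions cannot be told apart from a difference between libraries.

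Type I interferons bind a receptor made of IFNAR1 and IFNAR2, whose kinases TYK2 and JAK1 phosphorylate STAT factors. STAT2 joins IRF9 in a complex that binds interferon-stimulated response elements (ISRE). Interferon-gamma acts through IFNGR1 and IFNGR2 on STAT dimers, which bind gamma-activated sites (GAS) and switch on IRF1, a second-wave activator of antigen presentation, guanylate-binding protein and chemokine genes. IRF2 competes with IRF1 for its sites, while IRF3 and IRF7 are activated by nucleic acid sensors and switch on the interferon genes themselves. Plasma cells depend on another member of the family, IRF4, and bone marrow stroma provides myeloma cells with interleukin-6, which acts through STAT3.

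The libraries held 3865 to 3994 barcodes and 3981392 to 10433182 UMIs. Barcodes with fewer than 200 detected genes were dropped, which left 3947 MM.1S, 3732 HS-5 and 3856 coculture cells. Coculture cells were assigned by 80 MM.1S-specific and 229 HS-5-specific genes, each at least 50-fold higher in its own monoculture, which gave 1645 MM.1S and 2108 HS-5 cells. Another 101 cells with a mixed profile were left out as doublets. Plasma cell markers summed to 54700 and 27200 counts per 1000000 UMIs (CPM) in MM.1S cells of mono- and coculture and to 208 and 357 CPM in HS-5 cells, and stromal markers to 9240 and 10500 CPM in HS-5 against 2910 and 3920 in MM.1S. FN1 and SDC1 went against the labels, with FN1 at 810 CPM in MM.1S and 252 in HS-5 monoculture and SDC1 at 38.1 and 135 CPM. Markers of T cells, macrophages, endothelial and erythroid cells summed to between 0.752 and 14.1 CPM per list and group, with CD3D at 0 in every group but the HS-5 monoculture. Libraries shared 39 to 76 barcodes pairwise, of which at most 7 belonged to kept cells of both. MM.1S cells had a median of 669 UMIs in coculture against 2201 in monoculture, and HS-5 cells 957 against 971.5. The share of mitochondrial UMIs was 4.04% in cocultured and 6.82% in monocultured MM.1S cells, and that of ribosomal protein UMIs 12.1% and 18.8%. The part of these shifts in the results on MM.1S cells was not tested beyond the values given beside them.

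Levels are a gene's UMIs summed over a line's cells in a library, in CPM, with exact 95% Poisson intervals. Folds are ratios of CPM with an exact interval, and log2 ratios are of CPM + 1. All intervals cover counting error only. A gene was counted as past 2-fold where the mean of both levels was at least 10 CPM and the log2 ratio at least 1 or at most -1. In MM.1S cells, 2 of the 8 genes were past 2-fold higher in coculture, against 19.0% of all 7839 genes that reached this mean, and 1 was past 2-fold lower, against 5.79%. In HS-5 cells 7 of the 8 reached the mean level and 0 were past 2-fold, against 1.2% of 8814 genes higher and 1.79% lower. Between the monocultures, 1 of 8 was higher in HS-5, against 38.1% of 8734 genes, and 4 were lower, against 15.3%. IRF1 itself was under 10 CPM in MM.1S monoculture and reached the mean through the coculture. With these backgrounds a count of 2 or 0 says little, and the values of the single genes carry the description. The median log2 ratio of all genes was 0.24 in MM.1S cells, -0.03 in HS-5 cells and 0.56 for HS-5 over MM.1S in monoculture, and that of the group, over those that reached the mean level, was 0.14, 0.25 and -0.93.

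IFNAR1, the signalling chain of the type I receptor that holds TYK2 (chromosome 21, 33324477 to 33359862, plus strand, GRCh38 in GENCODE release 29), was at 87.0 CPM in MM.1S monoculture (908 UMIs), 88.8 CPM in MM.1S coculture cells (118 UMIs), 168 CPM in HS-5 monoculture (1032 UMIs) and 199 CPM in HS-5 coculture cells (496 UMIs). Both HS-5 groups lay above both MM.1S groups. HS-5 monoculture cells had 1.93-fold the level of MM.1S (1.76 to 2.11), a ratio just short of 2-fold. Within lines, coculture over monoculture was 1.02 in MM.1S cells (0.835 to 1.24) and 1.19 in HS-5 cells (1.06 to 1.32). In cocultured MM.1S cells without any HS-5-specific UMI, the log2 ratio of IFNAR1 was -0.46 in place of 0.03. There were 570 such cells, and their depth was not compared.

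IFNAR2, the ligand-binding chain that holds JAK1 (chromosome 21, 33229901 to 33265675, plus strand), showed the opposite order of the lines. It was at 31.9 CPM in MM.1S monoculture (333 UMIs), 15.0 CPM in cocultured MM.1S cells (20 UMIs), 2.93 CPM in HS-5 monoculture (18 UMIs) and 5.63 CPM in cocultured HS-5 cells (14 UMIs). The HS-5 monoculture level was 0.0918 times that of MM.1S (0.0537 to 0.147), the widest gap between the lines in the group. The cocultured MM.1S level was 0.471 times that of the monoculture (0.284 to 0.74), and the log2 ratio of -1.04 lay 1.28 below the median of all genes. That call rests on 20 UMIs and was lost among cells with at least 500 genes (log2 ratio -0.79) and with a pseudocount of 10 CPM (-0.74). The annotation places the protein-coding gene AP000295.1 over all 35775 bases of IFNAR2 on the same strand, and how reads of such pairs were counted is not given in the sources used here.

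IFNGR1, the ligand-binding chain of the interferon-gamma receptor (chromosome 6, 137197484 to 137219449, minus strand), was at 41.3 CPM in MM.1S monoculture, 49.7 CPM in cocultured MM.1S cells, 24.4 CPM in HS-5 monoculture and 38.6 CPM in cocultured HS-5 cells. The HS-5 monoculture was the lowest, beyond counting error, and the other groups lay within counting error of their neighbours. The ratio of coculture to monoculture was 1.58 in HS-5 (1.21 to 2.06) and 1.2 in MM.1S (0.913 to 1.56). Its partner IFNGR2 was at 21.2 and 31.6 CPM in MM.1S and at 55.2 and 76.8 CPM in HS-5 cells of mono- and coculture. UMIs of both chains of each receptor were thus counted in both lines. For IFNAR2 in HS-5 cells there were only 18 in monoculture and 14 in coculture, with the overlap of AP000295.1 unresolved. The kinases differed in their course: JAK1 was at 158 CPM in MM.1S monoculture and 71.5 CPM in coculture, a log2 ratio of -1.14 that was past 2-fold lower, while TYK2 (19.3 and 23.3 CPM) was not past 2-fold. In HS-5, JAK1 was at 197 and 186 CPM.

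STAT2, the STAT factor that joins IRF9 in the type I complex (chromosome 12, 56341597 to 56360155, minus strand), was at 20.2 CPM in MM.1S monoculture (211 UMIs), 12.8 CPM in cocultured MM.1S cells (17 UMIs), 7.98 CPM in HS-5 monoculture (49 UMIs) and 13.3 CPM in cocultured HS-5 cells (33 UMIs). MM.1S was the higher line in monoculture, and in coculture the levels of the lines lay within counting error of one another. The ratio of coculture to monoculture was 0.632 in MM.1S (0.362 to 1.04) and 1.66 in HS-5 (1.04 to 2.64), and neither was past 2-fold. In cocultured MM.1S cells without an HS-5-specific UMI, the log2 ratio was -1.77 in place of -0.62 and past 2-fold lower. Of the other 5 STAT genes listed, 2 reached a mean of 10 CPM in MM.1S cells. STAT3, which carries the interleukin-6 signal, was past 2-fold higher in coculture, from 17.9 to 92.5 CPM (log2 ratio 2.31), and STAT6 went from 15.1 to 16.6 CPM (0.12). In HS-5 cells 0 of the 4 that reached this mean were past 2-fold, beside 1.2% of all genes higher and 1.79% lower. STAT3 was at 38.4 and 43.4 CPM there.

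IRF1 lies on chromosome 5, 132481609 to 132490798, on the minus strand. Its promoter is shown because the level of IRF1 differs most between the groups. The sequence is from RefSeq (GRCh38.p14, minus strand, chr5:132490724-132491023), 250 bases before to 50 after the start, 5′ to 3′. Capitals mark a GAS match (TTCNNNGAA, the sequence bound by STAT dimers, both strands searched) at -124 to -116 and a kB match (bound by NF-κB) at -50 to -41, counted with the start base as 0.
IRF1 promoter: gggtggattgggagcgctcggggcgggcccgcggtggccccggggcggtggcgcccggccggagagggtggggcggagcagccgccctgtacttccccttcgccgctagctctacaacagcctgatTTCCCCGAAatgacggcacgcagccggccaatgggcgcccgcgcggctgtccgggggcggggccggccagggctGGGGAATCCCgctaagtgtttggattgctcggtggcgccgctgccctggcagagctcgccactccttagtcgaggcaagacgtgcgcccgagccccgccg
A GAS match was present in 7.66% and a kB match in 11.3% of 35116 RefSeq promoters of the same length, and the matches do not overlap each other. No match to the ISRE core (TTTCNNTTTC, 3.57% of promoters) was found in these letters. A match describes the sequence and is no evidence of binding. Promoter entries were found for 5 of the 9 genes, and among them IRF9 held a GAS match and IFNGR1 a kB match.

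IRF1 was at 9.2 CPM in MM.1S monoculture (7.45 to 11.2, 96 UMIs), 122 CPM in cocultured MM.1S cells (104 to 142, 162 UMIs), 34.2 CPM in HS-5 monoculture (29.7 to 39.1, 210 UMIs) and 32.2 CPM in cocultured HS-5 cells (25.5 to 40.0, 80 UMIs). The order of the lines was reversed between the cultures, with MM.1S lowest alone and highest in coculture, and the HS-5 levels did not differ beyond counting error. The fold in MM.1S cells was 13.2 (10.2 to 17.2), and the log2 ratio of CPM + 1 was 3.59, which is 3.35 above the median of all genes. In HS-5 cells the fold was 0.941 (0.718 to 1.22). HS-5 monoculture cells had 3.72-fold the level of MM.1S monoculture cells (2.9 to 4.78). Of the IRF1 level in cocultured MM.1S cells, free RNA from HS-5 cells, estimated at 1.73% of UMIs, could supply 0.556 CPM.

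**Figure D1:**
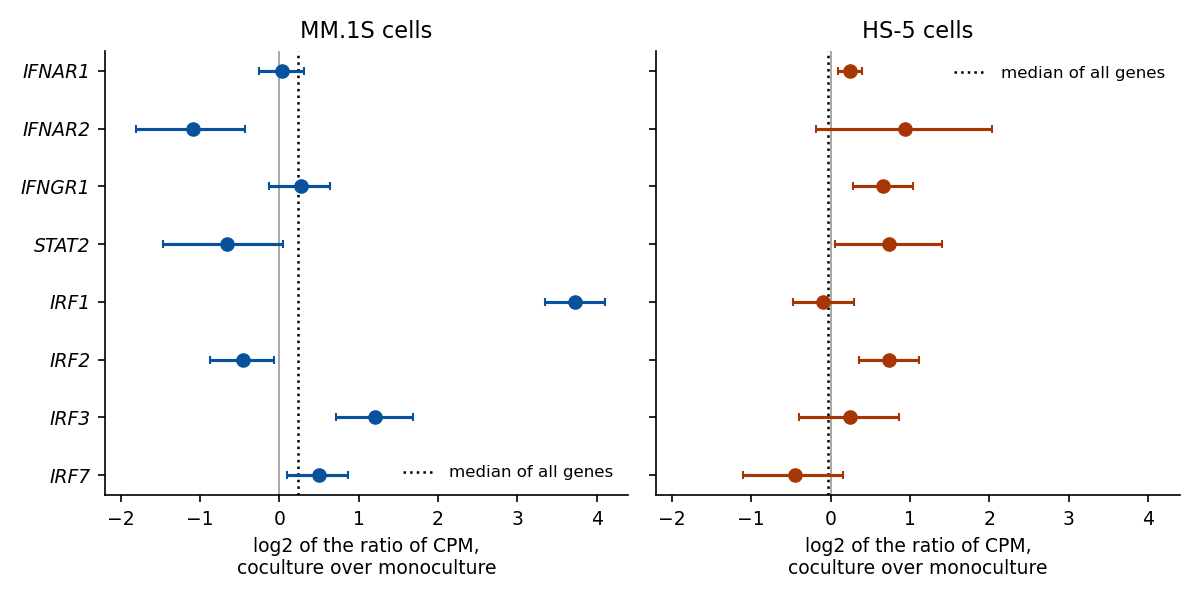
Log2 of the ratio of CPM, coculture over monoculture, for each gene in MM.1S cells (left) and HS-5 cells (right), with exact 95% intervals for counting error. The dotted line is the median of all genes, 0.24 in MM.1S and -0.03 in HS-5, and IRF1 in MM.1S cells lies far to the right of every other interval.

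A larger share of cocultured than of monocultured MM.1S cells had an IRF1 UMI, and most of these cells had 1. At a median of 669 UMIs per cocultured cell, such counts cannot tell an even rise from a rise in some of the cells. In MM.1S coculture cells, 126 had 1 IRF1 UMI, 15 had 2 and 2 had 3, the highest number in a cell. In MM.1S monoculture, 90 cells had 1 and 3 had 2. With each cell thinned to 500 UMIs, 5.09% of 1198 cocultured MM.1S cells had an IRF1 UMI (3.92 to 6.49%, exact Clopper-Pearson), against 0.279% of 3947 in monoculture (0.139 to 0.498%). For HS-5 the shares were 1.85% of 3515 cells in monoculture (1.43 to 2.35%) and 1.38% of 1808 in coculture (0.897 to 2.03%). Before thinning, the shares were 2.36% and 8.69% in MM.1S and 4.72% and 3.08% in HS-5 cells, so the deeper MM.1S monoculture still had the lowest share. As a measure of free RNA, 146 HS-5-specific genes with shares of 1.33 to 9.85% in cocultured HS-5 cells were found in a median of 0.0835% of cocultured MM.1S cells, with a range of 0 to 3.92%.

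IRF1 levels were also taken by depth and by mitochondrial share. With the cells of each group ordered by depth and cut into 3 equal sets, IRF1 in cocultured MM.1S cells was at 188 CPM in the shallowest (136 to 252), 144 CPM in the middle (108 to 188) and 89.6 CPM in the deepest set (69.1 to 114). In MM.1S monoculture the sets were at 10.4, 8.89 and 8.96 CPM. Within the cocultured cells the level fell with depth, and the intervals of the shallowest and deepest sets did not overlap. The deepest cocultured set, with a median of 1148 UMIs, and the shallowest monoculture set, with a median of 1393.5 UMIs, are the nearest in depth. They were at 89.6 CPM (69.1 to 114) and 10.4 CPM (6.29 to 16.3). The part of depth in the difference between the cultures was not tested. IRF1 was at 130 CPM in cocultured MM.1S cells below the median mitochondrial share and at 113 CPM in those above it. It was at 113 CPM (81.5 to 152, 43 UMIs) in those with no HS-5-specific UMI and at 126 CPM (104 to 150, 119 UMIs) in those with one. Every one of these sets of cocultured MM.1S cells lay above every set of monocultured ones. C5orf56, which overlaps 7094 bases of IRF1 on the opposite strand, was at 41.3 CPM in MM.1S monoculture and 39.9 CPM in coculture. The annotation also places AC116366.3 over all of IRF1 on the opposite strand, and whether reads were counted by strand is not given in the sources used here.

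**Figure D2:**
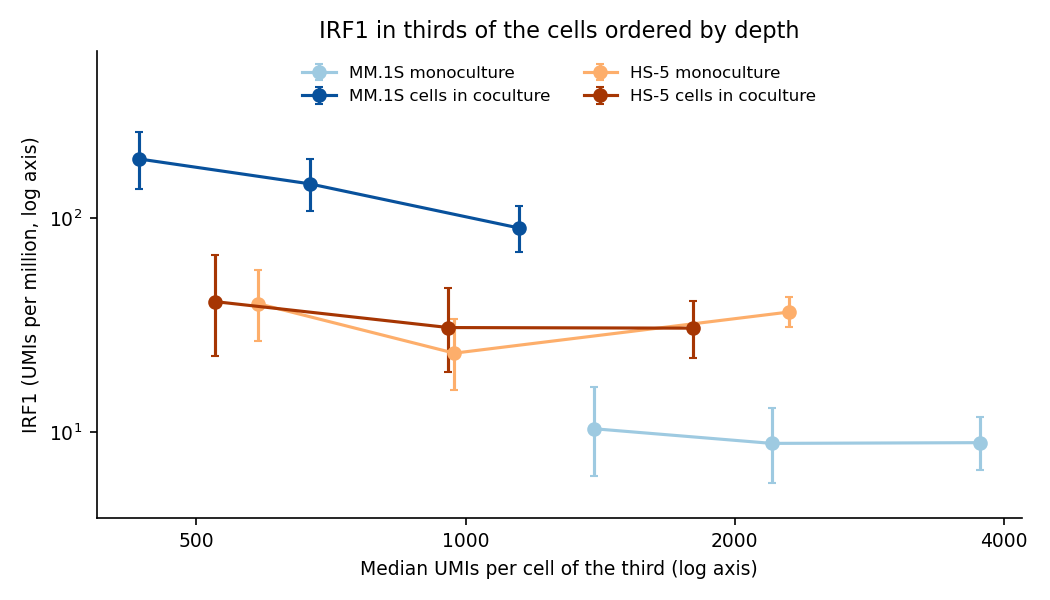
IRF1 level in CPM (log axis, exact 95% Poisson intervals) against the median UMIs per cell (log axis) in 3 equal sets of each group's cells ordered by depth. Cocultured MM.1S cells lie between 89.6 and 188 CPM and monocultured MM.1S cells between 8.89 and 10.4 CPM.

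IRF2, the repressor that shares the sites of IRF1 (chromosome 4, 184387713 to 184474580, minus strand), was at 60.9 CPM in MM.1S monoculture (635 UMIs), 44.4 CPM in cocultured MM.1S cells (59 UMIs), 24.3 CPM in HS-5 monoculture (149 UMIs) and 40.6 CPM in cocultured HS-5 cells (101 UMIs). The ratio of coculture to monoculture was 0.729 in MM.1S (0.549 to 0.953) and 1.67 in HS-5 (1.29 to 2.17), and neither was past 2-fold. HS-5 was at 0.399 times MM.1S in monoculture, and the lines lay within counting error in coculture. In MM.1S cells, IRF1 and IRF2 had ratios on opposite sides of 1. IRF2BP2 and IRF2BPL, whose proteins belong to the family that binds IRF2, were both past 2-fold higher there, at 48.7 and 166 CPM and at 20.8 and 60.9 CPM in mono- and coculture.

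IRF3, the latent factor activated by TBK1 (chromosome 19, 49659569 to 49665875, minus strand), was at 15.9 CPM in MM.1S monoculture (166 UMIs), 36.9 CPM in cocultured MM.1S cells (49 UMIs), 11.2 CPM in HS-5 monoculture (69 UMIs) and 13.3 CPM in cocultured HS-5 cells (33 UMIs). Cocultured MM.1S cells stood above the other groups, which lay within counting error of their neighbours. The fold of 2.32 (1.65 to 3.2) gave a log2 ratio of 1.16, 0.92 above the median of all genes, and fell short of 2-fold under median-ratio scaling (0.98) and with a pseudocount of 10 CPM (0.85). BCL2L12, which overlaps 734 bases of IRF3 on the opposite strand, was at 52.5 and 27.8 CPM in mono- and cocultured MM.1S cells, in the other direction. IRF7, which is itself induced by interferon (chromosome 11, 612553 to 615999, minus strand), was at 35.8 CPM in MM.1S monoculture, 50.4 CPM in cocultured MM.1S cells, 16 CPM in HS-5 monoculture and 11.7 CPM in cocultured HS-5 cells. Its ratios were 1.41 in MM.1S (1.07 to 1.83) and 0.731 in HS-5 (0.466 to 1.12), and neither was past 2-fold. Of the IRF genes outside the group, the plasma cell factor IRF4 was at 112 and 109 CPM and IRF5 at 23.4 and 22.6 CPM in mono- and cocultured MM.1S cells, log2 ratios of -0.04 and -0.05. IRF8, a factor of B and myeloid cells, went from 2.78 to 10.5 CPM there (29 and 14 UMIs), a fold of 3.79 (1.85 to 7.4), with a mean under 10 CPM. In HS-5 cells IRF4 was at 1.63 and 1.21 CPM and IRF5 at 0.326 and 0.402 CPM.

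The genes whose pattern over the 4 levels was most like that of IRF1 were NFIL3, MBD2, ENDOD1, TRIM28 and FNIP2, by the Euclidean distance between centred log2 levels over the 6506 genes that averaged 20 CPM or more. NFIL3, a leucine zipper transcription factor, was the nearest at a distance of 0.25, with 4.89 CPM in MM.1S monoculture, 56.4 CPM in cocultured MM.1S cells, 19.0 CPM in HS-5 monoculture and 17.7 CPM in cocultured HS-5 cells. The others lay at 0.512 to 0.628, and each was highest in cocultured and lowest in monocultured MM.1S cells. With 4 levels from 3 libraries, this likeness is a description.

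Genes of the pathway around the group were taken from lists written with earlier results of these data known. Interferon genes were scarce: 14 of the 22 listed had a row, their summed level was between 2.41 and 5.86 CPM in the 4 groups, and 0 reached a mean of 10 CPM. IFNG had 12 UMIs in MM.1S monoculture, 0 in cocultured MM.1S cells, 1 in HS-5 monoculture and 0 in cocultured HS-5 cells. At 3 UMIs, the limit that a count of 0 allows is 2.26 CPM in cocultured MM.1S cells and 1.21 CPM in cocultured HS-5 cells. Of the 16 inhibitors of the pathway, 12 had a mean of at least 10 CPM in MM.1S cells, of which 4 were past 2-fold higher and 0 lower (beside 19.0% and 5.79% of all genes). Without the 3 under 10 CPM in monoculture, SOCS3 and CISH among them, 2 of 9 were past 2-fold higher beside 13.2%, and the median was 0.17 beside 0.11. The 2 were IRF2BP2 and IRF2BPL, and no SOCS, PIAS or PTPN gene of the 9 was past 2-fold. SOCS3, a feedback inhibitor of JAK kinases induced by STAT3, went from 1.05 to 25.6 CPM (log2 ratio 3.69), and CISH, of the same family, from 4.7 to 31.6 CPM (2.52). SOCS1, the feedback inhibitor of interferon-gamma signalling, was at 4.22 and 4.51 CPM (44 and 6 UMIs). In HS-5 cells 0 of 10 inhibitors were past 2-fold (beside 1.2% of all genes higher and 1.79% lower), with SOCS3 at 18.7 and 28.6 CPM.

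The nucleic acid sensors and adaptors above IRF3 and IRF7 numbered 16, of which 9 averaged at least 10 CPM in MM.1S cells, with 3 past 2-fold higher and 1 lower (beside 19.0% and 5.79% of all genes). Of the 7 with at least 10 CPM in monoculture, 2 were higher and 1 lower, beside 13.2% and 7.93%. TMEM173 (STING) went from 6.61 to 20.3 CPM, TRIM25 from 32.3 to 85.8 CPM and MB21D1 (cGAS) from 80.5 to 172 CPM. IKBKE, a kinase of IRF3, went from 18.4 to 6.77 CPM (192 and 9 UMIs). The median log2 ratio of the list was 0.79 beside 0.24 for all genes. In HS-5 cells 0 of 9 were past 2-fold, beside 1.2% of all genes higher and 1.79% lower.

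Of the 46 listed targets of IRF1 and interferon-gamma, 32 had a mean of at least 10 CPM in MM.1S cells. Of these 16 were past 2-fold higher and 0 lower, or 50% beside 19.0% of all genes, with a median log2 ratio of 0.9. The 6 under 10 CPM in monoculture, CXCL9, GBP1 and NLRC5 among them, reached the mean only through the coculture in which they were high. Over the other 26, 10 were past 2-fold higher and 0 lower, beside 13.2% and 7.93% of the 7287 genes with 10 CPM or more in monoculture, and the median was 0.57 beside 0.11. With median-ratio scaling 13 of 32 were past 2-fold higher, beside 14.4% of all genes. The chemokine gene CXCL9 was highest, from 0.671 to 48.1 CPM (7 and 64 UMIs, log2 ratio 4.88), and free RNA could supply 0.0139 CPM of it. Next were the guanylate-binding protein gene GBP1, from 0.863 to 19.6 CPM (9 and 26 UMIs, 3.46), and APOL6, from 21.8 to 187 CPM (3.04). The antigen peptide transporter TAP1 went from 17.2 to 120 CPM and the class I transactivator NLRC5 from 7.48 to 33.1 CPM, while B2M, the common chain of class I molecules, went from 9560 to 6200 CPM (-0.62). In HS-5 cells, 1 of 26 such targets was past 2-fold higher, the immunoproteasome subunit PSMB9 (35.7 to 83.6 CPM), and CXCL9 was at 0.651 and 0.804 CPM and GBP1 at 33.7 and 35.4 CPM. The share of genes past 2-fold in HS-5 was 3.85% beside 1.2% of all genes.

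For the pair with the highest ratios, the RefSeq promoters (GRCh38.p14) are shown with the ISRE core match in capitals, for CXCL9 on the minus strand of chr4:76007460-76007759 and for GBP1 on the minus strand of chr1:89065159-89065458.
CXCL9 promoter: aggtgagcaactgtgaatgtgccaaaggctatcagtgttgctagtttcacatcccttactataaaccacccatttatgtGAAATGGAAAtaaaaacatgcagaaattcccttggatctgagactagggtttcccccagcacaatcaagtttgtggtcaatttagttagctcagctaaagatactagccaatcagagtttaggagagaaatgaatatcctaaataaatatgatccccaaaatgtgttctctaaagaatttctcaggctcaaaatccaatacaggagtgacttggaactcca
GBP1 promoter: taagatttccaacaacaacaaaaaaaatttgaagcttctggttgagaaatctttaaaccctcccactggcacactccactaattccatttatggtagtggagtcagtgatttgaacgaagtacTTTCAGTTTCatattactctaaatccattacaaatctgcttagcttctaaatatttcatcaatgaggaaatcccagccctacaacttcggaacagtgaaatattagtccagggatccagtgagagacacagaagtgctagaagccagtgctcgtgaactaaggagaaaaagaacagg
The match lies at -171 to -162 in CXCL9, on the opposite strand, and at -127 to -118 in GBP1. Among the 30 targets of this list with a promoter entry, 22 held an ISRE core match (73.3%) and 9 a GAS match (30.0%) in any of their promoters, beside 4.38% and 9.38% of 27305 genes counted in the same way. Of the type I targets, 22 of 28 held an ISRE core match (78.6%) and 8 a GAS match (28.6%). A kB match was found in 10 of 30 (33.3%) of the first list and 5 of 28 (17.9%) of the second, beside 13.3% of genes. The lists hold known interferon targets, changed or not in coculture, so these shares describe the lists and no response in these data.

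Of the 34 listed type I interferon targets, 27 had a mean of at least 10 CPM in MM.1S cells, of which 5 were past 2-fold higher (18.5% beside 19.0% of all genes) and 0 lower. With median-ratio scaling 3 were higher and 1 lower, beside 14.4% of all genes higher, and in cells with no HS-5-specific UMI 8 were higher and 2 lower, beside 21.5% higher. Of the 26 with at least 10 CPM in monoculture, 5 were higher and 0 lower, beside 13.2% and 7.93%. Their median was 0.39 beside 0.11. PARP9 (28.7 to 102 CPM), MX1 (98.7 to 241 CPM) and PARP14 (59.2 to 144 CPM) were highest, and IFIT1 (20.1 to 10.5 CPM) and IFI27 (72.5 to 43.6 CPM) lowest. ISG15 was at 489 and 524 CPM. In HS-5 cells 4 of 20 were past 2-fold higher (20% beside 1.2%) and 0 lower, with a median of 0.6 beside -0.03 for all genes. Of the 18 with at least 10 CPM in monoculture, 3 were higher, beside 0.738% of 8805 genes. The 4 were IFIT1 (8.14 to 41.4 CPM, log2 ratio 2.21), ISG20 (50 to 134 CPM, 1.41), IFIT3 (39.1 to 94.1 CPM, 1.25) and IFIT2 (14.7 to 35.8 CPM, 1.23). IFIT1, an antiviral protein gene of the type I response, thus had ratios on opposite sides of 1 in the lines, and GBP1 had a fold of 22.7 in MM.1S (10.3 to 55) and 1.05 in HS-5 cells (0.809 to 1.35). CXCL9 was too low in HS-5 cells, at 4 and 2 UMIs, to be counted there. Whether the lines differ in these lists was not tested, and both lines come from the same coculture library.

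Response genes of STAT3 and NF-κB, whose families bind GAS and kB motifs, were also counted. Of 14 STAT3-type interleukin-6 response genes, 11 had a mean of at least 10 CPM in MM.1S cells, with 6 past 2-fold higher and 2 lower (beside 19.0% and 5.79% of all genes) and a median of 1.01 beside 0.24. Of the 9 with at least 10 CPM in monoculture, which leaves out SOCS3 and BCL3, 4 were higher and 2 lower, beside 13.2% and 7.93% of all genes. Their median was 0.56 beside 0.11. SOCS3, BCL3 (1.05 to 22.6 CPM) and IL6R (28.4 to 214 CPM) were highest, and PIM1 and MYC were the lower pair. Of 11 NF-κB feedback genes 8 reached that mean, with 3 past 2-fold higher and 0 lower (beside 19.0% and 5.79%) and a median of 0.83 beside 0.24. Of the 4 with at least 10 CPM in monoculture, 1 was higher and 0 lower, beside 13.2% and 7.93%, with a median of 0.64 beside 0.11. NFKBIA, the gene of the main inhibitor of NF-κB, was at 95 and 112 CPM. Among the 3 past 2-fold was CXCL8, at 27.1 CPM in cocultured MM.1S cells against 1240 CPM in cocultured HS-5 cells, whose free RNA could supply 21.5 CPM. In HS-5 cells the medians were 0.1 and -0.33. The part of these pathways in the level of IRF1 was not tested.

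Cells with an IRF1 UMI were compared with those without. Among MM.1S coculture cells thinned to 500 UMIs, the IRF1 and interferon-gamma targets summed to 13700 CPM in the 61 cells with an IRF1 UMI (12500 to 15100) and to 12700 CPM in the 1137 without (12400 to 13000). The type I targets summed to 3930 CPM (3260 to 4700) and 3350 CPM (3200 to 3500). The intervals overlapped in both lists. B2M made up a large part of the first list's sum, so the sum says little about the scarcer targets. In MM.1S monoculture the first list summed to 17500 CPM in the 11 cells with an IRF1 UMI (14100 to 21300) and 14300 CPM without (14100 to 14500). The type I targets summed to 1090 CPM (400 to 2370, 6 UMIs) and 2590 CPM (2520 to 2660). The latter intervals did not overlap, but they leave out the spread between cells. In this culture, the 79 cells richest in type I targets held them at 1.82% of UMIs and the other 3868 cells at 0.218%. With targets so unevenly spread, 11 cells cannot settle a difference. With 1 UMI in most positive cells, a cell without a UMI may still express IRF1. In HS-5 coculture cells the first list summed to 5200 CPM in the 25 cells with an IRF1 UMI (4010 to 6630) and to 5160 CPM in those without.

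IRF7 and STAT2 had higher levels in the few cells with the most type I target UMIs. Of the MM.1S monoculture cells with at least 500 UMIs, the 2% with the largest share of UMIs in the type I target list (79 cells, 1.82% of their UMIs against 0.218% in the rest) had IRF7 at 111 CPM (66.9 to 173, 19 UMIs), against 34.5 CPM in the other 3868 cells (31.0 to 38.3). STAT2 was at 64.3 CPM (32.1 to 115, 11 UMIs) against 19.5 CPM (16.9 to 22.4). IRF1 was at 23.4 CPM (6.37 to 59.9, 4 UMIs) against 8.97 CPM (7.23 to 11), with overlapping intervals, and those of IRF2, IRF3 and the 3 receptor chains overlapped too. None of the members is in the ranking list. In cocultured MM.1S cells, the top 24 cells had IRF7 at 302 CPM (98.0 to 704, 5 UMIs) against 47.8 CPM in the rest (35.9 to 62.3), and STAT2 had 1 UMI there. IRF1 was also at 302 CPM in these 24 cells (98.0 to 704, 5 UMIs), against 105 CPM in the rest (87.2 to 126), with overlapping intervals. In HS-5 cells no gene of the group had more than 3 UMIs in the top cells of either culture except IFNAR1, so a difference was not detectable at this depth.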

How the data were processed

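The 3 Drop-seq libraries were deposited by the authors as whole-number UMI counts per gene and cell barcode, with no normalization. The submitters' processing notes name UMI-tools 1.0.0, STAR 2.5.3a, featureCounts 1.6.4 (Subread), SAMtools 1.9, Cell Ranger 3.0.2 and the build GRCh38. The annotation and the use of strand are not given in the sources used here.

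Barcodes with 200 or more genes were used. Coculture cells with at least 5 line-specific UMIs were assigned to a line, with an HS-5 share of at most 0.2 for MM.1S and of at least 0.8 for HS-5. Line-specific genes had at least 50 CPM, with 3 UMIs as the floor of the other line, and held no gene of the group or its lists. Doublets within a line were not removed. Steps ran in Python 3.11.15 with numpy 2.4.6, scipy 1.17.1 and pandas 2.3.3 and were tested on simulated data. Members and gene lists were chosen with earlier results of these data known. One gene of the pathway is not reported here. Named are the members, genes among the highest and lowest 3 of each list, the 5 genes most like IRF1 and overlapping genes. NLRC5, TAP1, ISG15, SOCS1, IFNG, NFKBIA, IFIT2, IRF2BPL, IRF8 and DDX58 were named after their values were seen. Since each condition is 1 library, nothing was tested and p-values are not given. UMIs do not carry PCR copies, so intervals cover the counting of molecules, and not the spread between cultures.

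Alternatives were other scalings, pseudocounts of 0.1 and 10 CPM, other minimum levels, cell filters, line limits and line-specific genes, and free RNA subtraction. Leaving out shared barcodes or coculture cells with the other line's UMIs, list counts and medians over genes with at least 10 CPM in monoculture, and recounts of the target lists under other scaling and cells, were added after seeing the data.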

Additional observations from a re-analysis of the deposited data

Results flagged for a closer look

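IRF2 was flagged for its log2 ratio of coculture over monoculture, which had opposite signs in the lines. Opposite signs were not particular to IRF2, since IRF1, IRF7, STAT2 and IFNAR2 had them too. For each of those, the counting interval held 1 in MM.1S or in HS-5 cells. It was -0.45 in MM.1S cells (60.9 to 44.4 CPM) and 0.72 in HS-5 cells (24.3 to 40.6 CPM), a difference of -1.17, and the counting interval of each ratio left out 1. With 1 library per condition and line, the difference was not tested.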

How the results depend on the processing

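Of 400 alternative values of the members' log2 ratios under 18 other settings, 386 moved by less than the distance from the middle to the end of their counting interval, 14 moved by more and 0 changed the sign of a value past 2-fold. Many of the 386 could not move. Minimum levels do not enter a log2 ratio. Line limits, line-specific genes and free RNA subtraction do not enter the ratios between the monocultures. The count of 386 is therefore no measure of stability. IRF1 in MM.1S cells ranged from 2.78, with a pseudocount of 10 CPM, to 3.84, with equal weight per cell. With the pseudocount of 10 CPM, 1 member (IRF1) was past 2-fold in MM.1S cells and 3 were between the monocultures. With a mean of at least 50 CPM, 1 (IRF1) and 0 were. Only IRF1, IRF2 and IFNAR1 reached that mean in MM.1S cells, and only IFNAR1 between the monocultures. The other genes thus dropped out by level, with their ratios unchanged. The share of all genes past 2-fold is not given for these settings, so the counts have no background. STAT2 in MM.1S cells had a log2 ratio of -1.77 in coculture cells with no HS-5-specific UMI, past 2-fold lower. Scaling by the median ratio lowered HS-5 over MM.1S log2 ratios, IFNAR1 to 0.49 and IFNGR1 to -1.18. Removing 8 barcodes found in several libraries changed no call. No paired analysis was possible because each condition has 1 library. Shares of cells with a UMI rise with the depth kept, and the 378 cocultured MM.1S cells that reach 1000 UMIs limit them: IRF1 was then in 7.14% of these cells and in 0.853% of MM.1S monoculture cells.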

Other observations

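The 101 mixed cells of the coculture, left out as doublets, had IRF1 at 63.1 CPM (30.2 to 116, 10 UMIs), between the levels of the cocultured lines. AL136295.5, which in GENCODE release 29 covers all 5513 bases of IRF9 on chromosome 14 on the same strand, had 13 UMIs in MM.1S monoculture, 7 in cocultured MM.1S cells, 5 in HS-5 monoculture and 1 in cocultured HS-5 cells, or 1.25, 5.27, 0.814 and 0.402 CPM. In the HS-5 monoculture, the 71 cells with the largest share of type I target UMIs had the RNA sensor genes DDX58 at 274 CPM (177 to 404) and IFIH1 at 131 CPM (67.9 to 229), against 31.4 and 19.0 CPM in the other cells, while IRF1 was at 32.8 CPM (6.77 to 96.0) and 33.9 CPM.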
